A study of Mus musculus with 16 samples.

Results

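Genes that encode enzymes and binding proteins of chromatin were followed in eosinophils of the mouse duodenum at 2 times of day. Genes were taken by symbol alone, from families of lysine demethylases (Kdm) and methyltransferases (Kmt, Setd, Ezh), acetyltransferases (Kat, Crebbp, Ep300, with Ing subunits), deacetylases (Hdac, Sirt), remodellers (Smarc, Chd, Arid), readers (Brd, Phf, Asxl), DNA methylation enzymes (Tet, Dnmt), high mobility group proteins (Hmga, Hmgb, Hmgn) and nuclear receptor cofactors (Ncoa, Ncor). Of the 1413 genes that the authors' 2 deposited tables list, 18 belong to these families, 16 among the 1340 of CD11c-low cells and 4 among the 172 of CD11c-high cells, with 2 in both. The eosinophils were sorted from duodenal lamina propria, the connective tissue under the epithelium, as cells with high or low surface CD11c, an integrin chain. They were collected at ZT3 (AM) or ZT15 (PM), where ZT, zeitgeber time, counts hours after lights on. Each of the 4 groups (CD11c-high or CD11c-low, ZT3 or ZT15) held 4 libraries of 1000 sorted cells. The sources used here give no strain, genotype, age or treatment of the mice. The labels do not say whether the 4 libraries of a group came from separate animals, so the spread between these samples may be technical. The errors below belong to the authors' shrunken estimates. They rest on these samples alone and are not a direct measure of that spread.

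Histone tails carry acetyl and methyl groups that are placed by writers, removed by erasers and bound by readers, and ATP-driven remodellers slide or replace nucleosomes. Acetylated histones and H3K4 methylation mark active promoters and enhancers, whereas H3K9 and H3K27 methylation mark repressed genes. Several of these proteins are known partners of the circadian clock: Crebbp is a coactivator of the clock activators CLOCK and BMAL1, and Kdm5a has been described as binding them too. In macrophages, Kdm6b is known as an H3K27 demethylase gene switched on by inflammatory stimuli.

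Both tables hold a comparison made by the authors, without values per library. Each listed gene has a mean normalised count over libraries, a shrunken log2 fold change of ZT15 over ZT3 with its posterior standard deviation (SD, given after ±), and an s-value. The s-value of a gene gives the share of signs expected to be wrong if it and all genes with lower s-values are taken. Every listed gene has an s-value under 0.05, and "rose" or "fell" below means listed with a positive or negative change at ZT15. The sign rests on the tables' names (PM against AM). GENCODE M21 holds 165 protein-coding genes of these families, and the other 147 are in neither table, so they were either not called or not tested and their levels were not analysed here. Among those are all genes of the Kat, Ezh, Tet, Dnmt, Asxl, Ncor, Hmga and Hmgn families, and Ep300.

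In CD11c-low eosinophils 7 of the 16 listed members rose and 9 fell, while 52.2% of all genes in the authors' deposited table rose and 47.8% fell. The shares lay close to those of the table as a whole, and in 4 of the 5 roles with 2 or more listed members these shared a direction. All 4 listed demethylases and both listed genes of acetyltransferases and their subunits fell. All 3 listed genes of deacetylases and their subunits rose, as did both listed SET domain genes. Ing3 and Arid4b are counted there as subunits of such complexes, not as enzymes. These roles were assigned with the values known and hold 2 to 4 genes each, so the counts are a description. If the final full stop of the name pattern is read as 1 more required character, Crebbp, Ing3 and Chd7 drop out. No gene of acetyltransferases or their subunits is then left, and 3 roles with 2 or more listed members remain, each with 1 direction. The false sign rates that the authors' deposited s-values imply for single genes add up to 0.755 wrong signs expected among the 16. Since each library pooled 1000 cells, a change in the RNA of every cell and a change in the share of cells that hold it cannot be told apart.

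**Figure D1:**
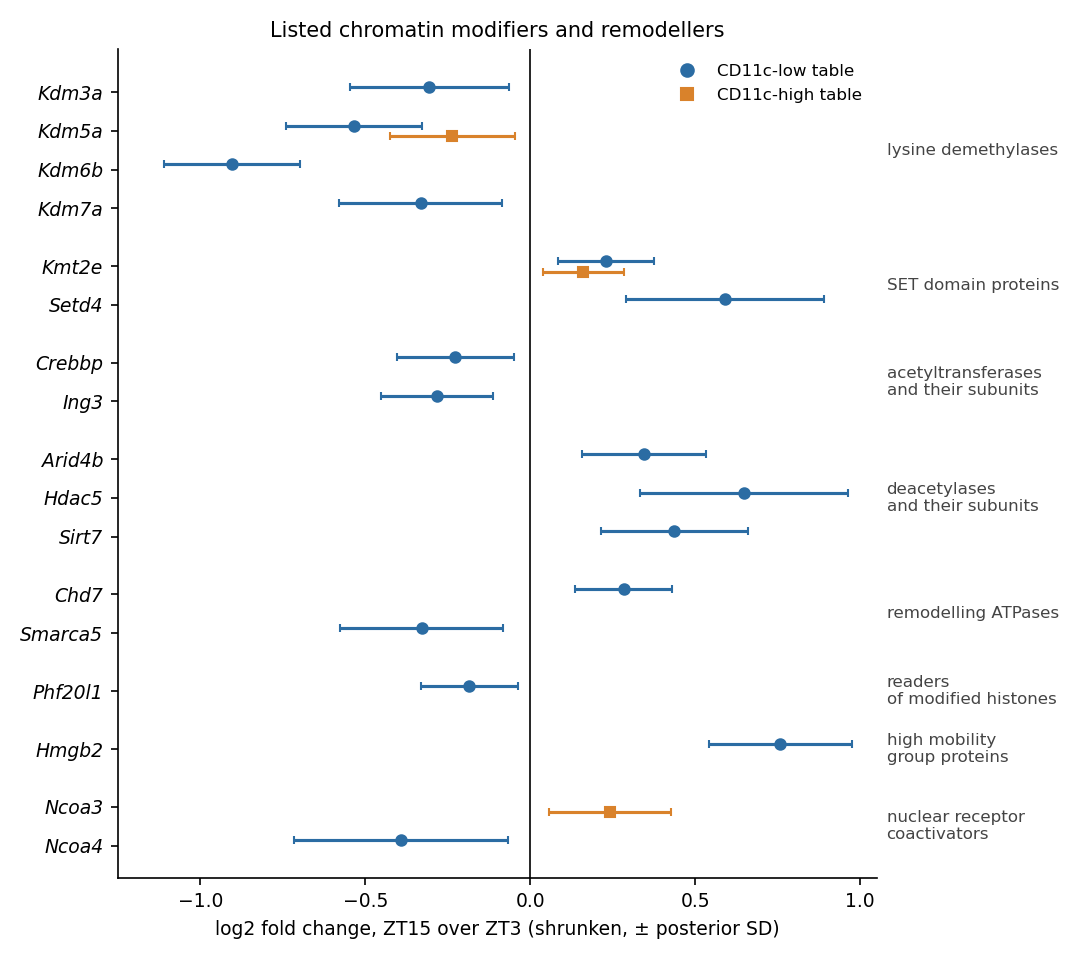
Log2 fold change at ZT15 over ZT3 (horizontal axis) of 17 of the 18 listed chromatin genes, grouped by role, with circles for the CD11c-low and squares for the CD11c-high table; bars are the authors' posterior SD. The 4 demethylases lie left of 0 and the 3 genes of deacetylases and their subunits right of it. Kdm6b (-0.90) and Hmgb2 (0.76) lie farthest from 0.

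Kdm6b (ENSMUSG00000018476.8) had the largest change of the members. In CD11c-low cells it fell by 0.90 ± 0.21 on the log2 scale, which is a level 1.87-fold higher at ZT3, with an s-value of 6.85e-07 and a mean normalised count of 4562, per the authors' deposited table. By s-value it ranked 11 among the 640 genes that fell there, and by size of change 23. Kdm5a (ENSMUSG00000030180.16), which removes methyl groups from H3K4, fell by 0.53 ± 0.21, a 1.45-fold higher level at ZT3, with an s-value of 0.000814 and a mean normalised count of 582, per the authors' deposited table. The other 2 erase H3K9 methylation, Kdm7a that of H3K27 as well, and their changes were less certain. The authors' deposited table gives Kdm7a (ENSMUSG00000042599.9) -0.33 ± 0.25 at an s-value of 0.0302 and a mean normalised count of 220. It gives Kdm3a (ENSMUSG00000053470.14), also known as a gene induced by hypoxia, -0.31 ± 0.24 at an s-value of 0.0366 and a mean normalised count of 139, per the authors' deposited table. Of the 18 protein-coding Kdm genes in GENCODE M21, these 4 are the ones listed for CD11c-low cells.

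The SET domain is the catalytic fold of most histone lysine methyltransferases. Setd4 (ENSMUSG00000022948.17), a SET domain methyltransferase gene, rose by 0.59 ± 0.30, or 1.51-fold, with an s-value of 0.00528 and a mean normalised count of 115, per the authors' deposited CD11c-low table. Kmt2e (ENSMUSG00000029004.16), also called MLL5, has a SET domain and a PHD finger that binds methylated H3K4. It rose by 0.23 ± 0.15, or 1.17-fold, with an s-value of 0.0196 and a mean normalised count of 1227, per the authors' deposited table. By size that increase ranked 639 among the 700 genes that rose, so it was one of the smaller listed.

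Among acetyltransferase genes, Crebbp (ENSMUSG00000022521.11) encodes CBP, which acetylates histones and was named for binding the cAMP-responsive factor CREB. Its transcript fell by 0.23 ± 0.18 in CD11c-low cells, with an s-value of 0.0393 and a mean normalised count of 777, per the authors' deposited table. Ing3 (ENSMUSG00000029670.13), a subunit of the NuA4/TIP60 acetyltransferase complex that reads methylated H3K4, fell by 0.28 ± 0.17 there, with an s-value of 0.0153 and a mean normalised count of 796, per the authors' deposited table. Both decreases were smaller than the median decrease in that table, which was -0.39 over 640 genes.

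The 3 genes of deacetylases and their subunits that rose had smaller s-values. Hdac5 (ENSMUSG00000008855.18) encodes a class IIa deacetylase that moves between nucleus and cytoplasm on phosphorylation. In CD11c-low cells it rose by 0.65 ± 0.31, or 1.57-fold, with an s-value of 0.00385 and a mean normalised count of 173, per the authors' deposited table. Sirt7 (ENSMUSG00000025138.15), a nucleolar NAD-dependent deacetylase gene, rose by 0.44 ± 0.22, or 1.35-fold, with an s-value of 0.00596 and a mean normalised count of 326, per the authors' deposited table. Arid4b (ENSMUSG00000039219.19), which encodes a DNA-binding subunit of the SIN3 deacetylase complex, rose by 0.34 ± 0.19 with an s-value of 0.00906 and a mean normalised count of 591, per the authors' deposited table. All 3 s-values were under 0.01, as were those of 38.7% of all genes listed for CD11c-low cells and of 8 of the 16 members.

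Promoter windows of the members were searched for 3 textbook sites of factors tied to daily or cAMP-driven transcription. Hdac5, which rose, and Ing3, which fell, are given here because theirs were the windows with a match. Both are from RefSeq promoters of build GRCm38.p6, written 5′ to 3′ along the gene. The motif is in capitals, an E-box (CACGTG) for Hdac5 and a cAMP response element (TGACGTCA) for Ing3.
Hdac5, chr11:102230143-102230242, minus strand: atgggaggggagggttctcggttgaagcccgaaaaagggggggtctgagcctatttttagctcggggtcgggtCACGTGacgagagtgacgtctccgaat
Ing3, chr6:21949501-21949600, plus strand: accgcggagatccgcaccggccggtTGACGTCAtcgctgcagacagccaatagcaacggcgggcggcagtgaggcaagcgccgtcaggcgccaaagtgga
The E-box begins 3 bases downstream of the annotated Hdac5 start, and the cAMP response element 45 bases upstream of that of Ing3. Promoter windows (250 bases before to 50 after the start) were there for 11 of the 18 members. Among those without a window, and so not searched, were Kdm6b, Kdm5a, Kmt2e, Chd7, Ncoa3 and Phf20l1. On either strand, an E-box was in 1 of these 11 genes and in 7.15% of all 32851 windows, and a cAMP response element in 1 of 11 and in 1.79%. D-boxes (TTATGTAA or TTATGCAA) were in the windows of 0 of the 11 genes and in 1.66% of all windows. The E-box and the cAMP response element have the letters ACGT in common, but neither holds the other. A match is a run of letters and says nothing of binding in these cells.

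The remodelling ATPases went in opposite directions. Chd7 (ENSMUSG00000041235.13), a remodeller of the chromodomain family that is bound at enhancers, rose by 0.28 ± 0.15 with an s-value of 0.00814 and a mean normalised count of 887, per the authors' deposited CD11c-low table. Smarca5 (ENSMUSG00000031715.15), the ATPase SNF2H of the ISWI complexes that space nucleosomes, fell by 0.33 ± 0.25 with an s-value of 0.0308 and a mean normalised count of 321, per the authors' deposited table.

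Hmgb2 (ENSMUSG00000054717.8) encodes an abundant protein that bends DNA through HMG boxes and is known to be high in dividing cells. It had the largest increase of the members, 0.76 ± 0.22 or 1.69-fold, with an s-value of 2.99e-05 and a mean normalised count of 617, per the authors' deposited CD11c-low table. By size of change it ranked 28 of the 700 genes that rose. Phf20l1 (ENSMUSG00000072501.6), a reader with Tudor domains and a PHD finger, had the smallest change of the members that fell, -0.18 ± 0.15 with an s-value of 0.0412 and a mean normalised count of 1386, per the authors' deposited table. Ncoa4 (ENSMUSG00000056234.16), named as a nuclear receptor coactivator and also the receptor that delivers ferritin for autophagy, fell by 0.39 ± 0.32 with an s-value of 0.0402 in the authors' deposited table. Its mean normalised count of 60.0 was the lowest of the members.

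**Figure D2:**
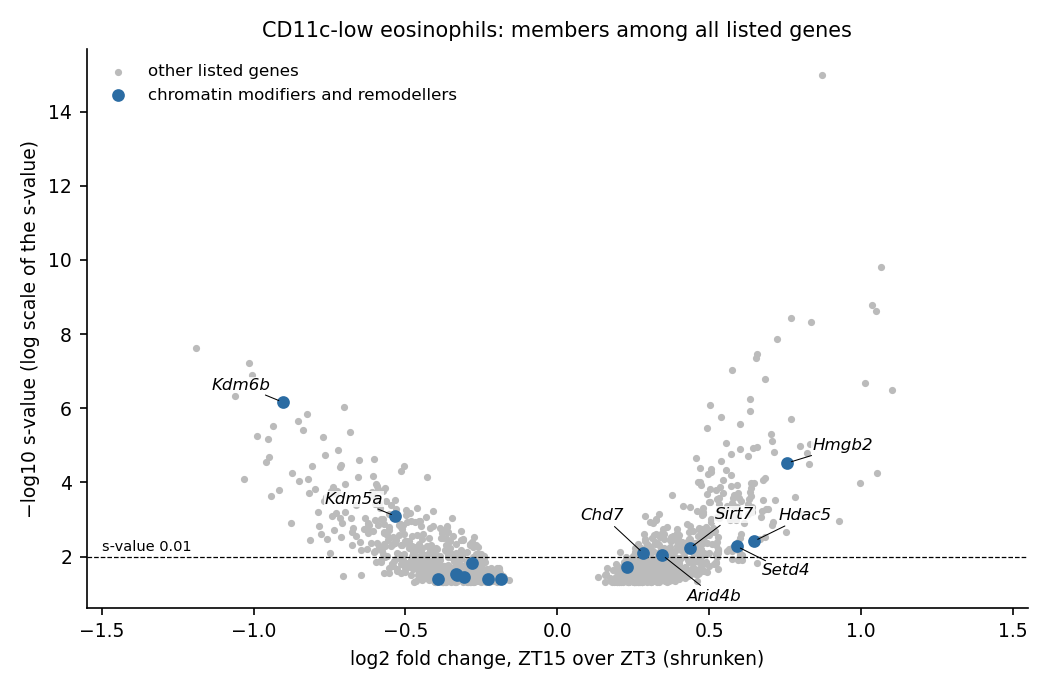
Log2 fold change at ZT15 over ZT3 (horizontal) against -log10 of the s-value (vertical, dashed line at an s-value of 0.01) for the 1321 genes of the CD11c-low table with changes within 1.5 in log2; 19 genes lie outside and none of them is a member. Blue points are the 16 members; the 8 above the line are labelled, 6 higher and 2 lower at ZT15.

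Of the 7 members that rose in CD11c-low cells 6 had an s-value under 0.01 in the authors' deposited table, but of the 9 that fell this held only for Kdm6b and Kdm5a, a contrast that was not tested. Over the whole table the shares were 39.0% of the genes that rose and 38.3% of those that fell. The false sign rate of the gene itself was under 0.05 for 9 of the 16 members, 6 higher and 3 lower, and for 52.7% of all listed genes. The median increase was 0.44 for the 7 members and 0.36 for all 700 genes that rose. The median decrease was -0.33 for the 9 members against -0.39 for all 640 genes that fell, and Kdm6b, at -0.90, lay farthest from it.

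In CD11c-high eosinophils, the authors' deposited table lists 4 members, of which 3 rose and 1 fell, beside 54.1% higher and 45.9% lower over all its 172 genes. Ncoa3 (ENSMUSG00000027678.18), a p160 coactivator gene of nuclear receptors, rose by 0.24 ± 0.18, or 1.18-fold, with an s-value of 0.0320 and a mean normalised count of 395, per the authors' deposited table. Kdm5a fell by 0.24 ± 0.19 with an s-value of 0.0401, and Kmt2e rose by 0.16 ± 0.12 with an s-value of 0.0470, the smallest increase of all 93 genes that rose in the authors' deposited table. None of the 4 had an s-value under 0.01 (22.1% of listed genes did) or a false sign rate of its own under 0.05 (45.3% of listed genes did), and 0.280 wrong signs are expected among them. The CD11c-high members are therefore less certain than Kdm6b or Hmgb2 in CD11c-low cells.

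Kdm5a and Kmt2e are the 2 members in both tables, or 2 of 16 CD11c-low and 2 of 4 CD11c-high members. Over all genes, 7.39% of the CD11c-low and 57.6% of the CD11c-high table are in the other. The H3K4 demethylase Kdm5a was lower and the H3K4 methyl reader Kmt2e higher at ZT15 in each subset. A shared direction was general, as it held for 97 of the 99 genes in both tables. For Kdm5a the change in CD11c-high minus that in CD11c-low cells was 0.30 (95% interval -0.25 to 0.85; normal test on the authors' deposited values, p = 0.288, adjusted p = 0.837 by Benjamini-Hochberg over the 99 genes in both tables). For Kmt2e it was -0.07 (95% interval -0.44 to 0.30; adjusted p = 0.970 by the same test). Neither difference passed the test, and the intervals leave room for a difference as large as the changes themselves. The changes were shrunken in each table separately, and how that affected their difference was not tested. The test also treats the subsets as independent. Sample titles repeat the same replicate numbers in both subsets, and the labels do not say whether equal numbers share an animal. If they do, these intervals and p-values could be off, and the shared directions would not be independent. Mean normalised counts of Kdm5a were 613 in CD11c-high cells and 582 in CD11c-low cells, and those of Kmt2e 1044 and 1227, in the authors' deposited tables, which were normalised separately. For the 16 members in 1 table, Kdm6b, Hmgb2 and Ncoa3 among them, the difference between subsets was not tested.

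**Figure D3:**
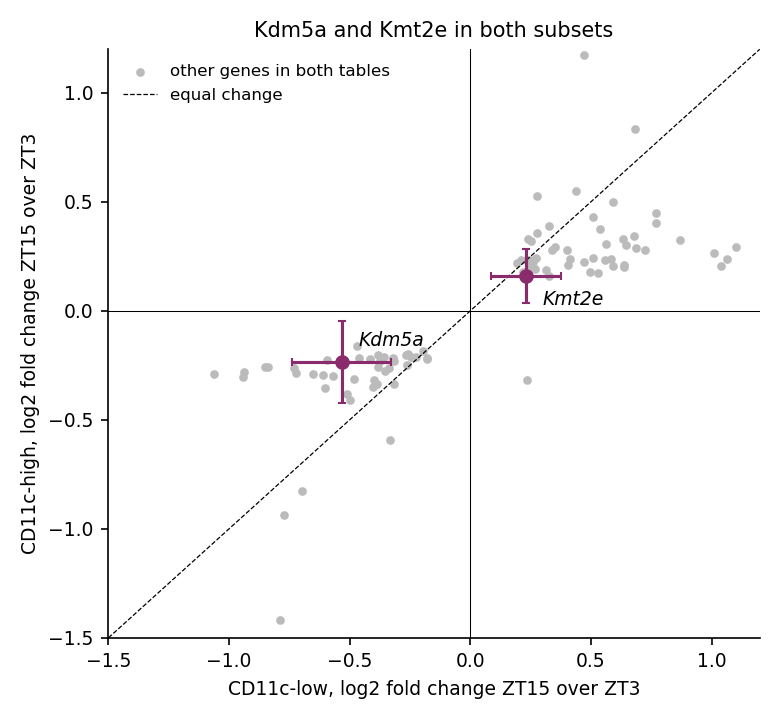
Log2 fold change at ZT15 over ZT3 in CD11c-low (horizontal) and CD11c-high cells (vertical) for the 97 genes in both tables that are not immunoglobulin segments; bars on Kdm5a and Kmt2e are the authors' posterior SD and the dashed line marks equal change. Kdm5a (-0.53 and -0.24) lies in the lower left and Kmt2e (0.23 and 0.16) in the upper right quadrant.

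Other chromatin genes, from 9 lists of 314 genes outside the families above, gave 36 listed genes in CD11c-low cells, 18 higher and 18 lower, and 10 of the 36 had an s-value under 0.01 in the authors' deposited table, beside 38.7% of all genes listed there. By s-value they were led by Sin3b, the scaffold of the SIN3 deacetylase complex, which rose by 0.71 ± 0.19 (s-value 1.48e-05), and by Lbr, the lamin B receptor that tethers heterochromatin to the nuclear envelope, which fell by 0.96 ± 0.27 (s-value 2.82e-05) in the authors' deposited table. H3f3b, which encodes the replication-independent histone H3.3, rose by 0.46 ± 0.14, and Tspyl1, of the nucleosome assembly protein family, fell by 0.58 ± 0.23 there, per the authors' deposited table. Of Polycomb genes, the H2A ubiquitin ligase gene Rnf2 (-0.65 ± 0.32) and the histone-binding subunit gene Rbbp4 (-0.41 ± 0.22) fell in the authors' deposited table. The silencing factor gene Tasor (-0.66 ± 0.31), the bromodomain gene Phip (-0.36 ± 0.19) and the arginine methyltransferase gene Prmt1 (-0.58 ± 0.35) were lower too, per the authors' deposited table. The cohesin loader gene Nipbl (0.37 ± 0.18), the condensin gene Ncaph2 (0.47 ± 0.25) and the nuclear body gene Sp100 (0.37 ± 0.22) rose there, per the authors' deposited table.

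By list, directions were in part those of the members of like role and in part not, and no such contrast was tested. Of 37 further subunits of deacetylase and co-repressor complexes 7 were listed for CD11c-low cells, of which Sin3b rose and 6 fell, whereas Hdac5, Sirt7 and Arid4b rose. The 6, named here after their values were seen, are the NuRD subunit genes Mta2 (-0.32 ± 0.21) and Gatad2a (-0.39 ± 0.28), Tbl1xr1 of the NCoR complex (-0.28 ± 0.21), Mier1 (-0.26 ± 0.21), Mier3 (-0.38 ± 0.29) and Ctbp1 (-0.25 ± 0.22) in the authors' deposited table. Of 44 other acetyltransferase genes and subunits 5 were listed, 4 higher and 1 lower, whereas Crebbp and Ing3 fell. Those that rose, likewise named after their values were seen, are Hat1 (0.32 ± 0.19), Morf4l2 (0.35 ± 0.21), Kansl1 (0.24 ± 0.18) and Msl1 (0.29 ± 0.23), and Mbtd1 fell by 0.45 ± 0.30, in the authors' deposited CD11c-low table. The list of cohesin, condensin and CTCF genes had 4 higher and 2 lower. Among the 4 is Safb2 (0.20 ± 0.17 in the authors' deposited table), which the list holds although it is none of these. Histone chaperones had 3 and 2, Polycomb genes 2 and 2, and other remodelling subunits 1 and 1, as the remodelling ATPases among the members did. Readers and heterochromatin proteins had 1 higher and 3 lower, where Phf20l1, the member counted as a reader, fell. Ing3 and Kmt2e also bind methylated H3K4 but were counted under other roles, and Ing3 fell while Kmt2e rose. Histones had 2 higher and 0 lower, and other methyltransferases and their partners 0 and 1. In CD11c-high cells 2 of the 314 were listed. The methyltransferase gene Nsd1 fell by 0.28 ± 0.18 and the chaperone gene Set rose by 0.33 ± 0.21 per the authors' deposited table, and Set rose by 0.24 ± 0.19 in CD11c-low cells too.

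**Figure D4:**
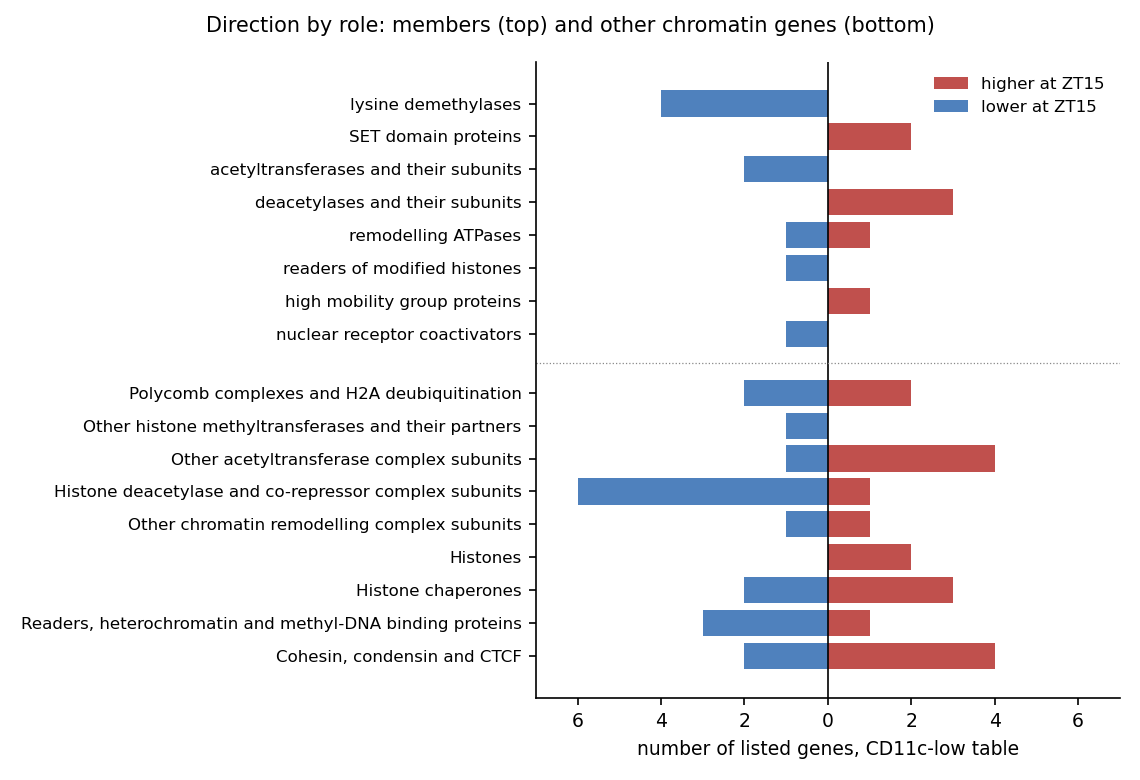
Number of listed genes in the CD11c-low table (horizontal axis; lower at ZT15 to the left of 0, higher to the right) for each role of the 16 members above the dotted line and each list of other chromatin genes below it. Genes of deacetylases and their subunits among the members number 3 higher and 0 lower, whereas other deacetylase and co-repressor subunits number 1 higher and 6 lower.

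Transcripts of the members were long, a feature the choice by name did not use, given here without a test. The longest protein-coding transcript in GENCODE M21 had a median of 5989 nt over the 16 CD11c-low members and of 3083 nt over the 1269 listed genes with one. Members that fell had a median of 6654 nt and a GC content of 43.3%, and those that rose 4852 nt and 51.4%. The whole table had the same order, with 3511 nt and 46.1% for genes that fell and 2702 nt and 50.4% for genes that rose. In GC content single members went against this order, and the share of all listed genes that did so was not counted. Kdm6b (59.6%) and Crebbp (51.7%) fell and lay above the median of all genes that rose, and Hmgb2 (38.7%), Arid4b (40.7%) and Kmt2e (45.9%) rose and lay below the median of all genes that fell. Whether length or base composition had a part in the changes was not tested. Per kilobase of that transcript, the authors' mean normalised count in CD11c-low cells was highest for Kdm6b (686), followed by Hmgb2 (235) and Ing3 (209), and lowest for Ncoa4 (14.8), with no error on these levels.

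Exons of 9 of the 18 members overlap those of another gene in GENCODE M21, miRNAs left out, 7 on the opposite strand. Kdm6b overlaps its antisense RNA Kdm6bos, Kdm5a overlaps Ccdc77, Kmt2e overlaps Srpk2, Ncoa3 overlaps Sulf2, and Arid4b overlaps Ggps1. On the same strand, Sirt7 overlaps Mafg. None of these partners is in either table, and the sources used here do not say whether counting used strand, so a share of these counts may come from the partner. The reference also names a pseudogene copy of Smarca5, and the sources used here do not say how reads that fit both were counted.

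Other genes of the same comparison bear on the cells sampled. Of 17 eosinophil markers 5 are in the authors' deposited CD11c-low table, 3 higher and 2 lower. Those higher are Siglecf, the lectin used to identify eosinophils (0.23 ± 0.13, mean normalised count 1633), Csf2rb (0.33 ± 0.16) and Alox15 (0.26 ± 0.14). Those lower are Adgre1 (-0.29 ± 0.14, mean normalised count 2776), which had the smallest s-value of the 5 (0.00456), and Adgre4 (-0.21 ± 0.16). Of 56 markers of other cell types 7 are listed there, 5 higher and 2 lower, and 1 in the CD11c-high table. The cytotoxic lymphocyte gene Gzma was among the 7, higher at ZT15 (s-value 3.83e-07, mean normalised count 30.4) in the authors' deposited table. Its fitted change there is too large to be read as a fold. The B-cell markers Bank1 (0.32 ± 0.15, mean normalised count 1145) and Ighm (0.24 ± 0.20, 522) were higher too, per the authors' deposited table. So were the macrophage and dendritic marker Cd68 (0.52 ± 0.30, mean normalised count 143) and the mast cell and basophil marker Hdc (0.58 ± 0.20, 934). Hdc is also the 1 marker listed for CD11c-high cells, where it rose by 0.24 ± 0.19 with a mean normalised count of 817, per the authors' deposited table. Cd74, of the same list as Cd68 (-0.49 ± 0.33, mean normalised count 878), and the epithelial marker Krt18 (-0.35 ± 0.24) were lower in the authors' deposited CD11c-low table. The nuclear RNA Malat1 rose by 0.63 ± 0.15 there, per the authors' deposited table. Whether other cells or nuclear RNA had a part in the increase of Hmgb2 or in any other member's change was not tested. Itgax, which encodes CD11c, is in neither table. Each table compares times within a subset and not the subsets with each other, so the sort could not be checked.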

How the data were processed

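RNA-seq of sorted duodenal eosinophils was deposited as 2 tables, 1 per CD11c subset, each the authors' PM-against-AM comparison. Per the labels' protocols, cDNA from polyadenylated RNA of 1000 sorted cells was amplified before Nextera XT library preparation. The submitters' processing notes name STAR 2.7.10b, DESeq2 1.38.3 and the build GRCm39 but no role for them. The sources used here do not give the counting step, annotation or shrinkage method. As a signal, the authors deposited each gene's mean normalised count over libraries. The log2 fold changes and their SDs were deposited by the authors in log2 units; they are shrunken, since s-values come from shrunken estimates. The s-value that the authors deposited is not a p-value. The depth of each library is unknown, and no interval for counting error is printed. PM over AM was read from the tables' names.

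Members were found by a pattern on gene symbols; listed members are named except 1, which is counted and not reported here by name, with the 12 smallest s-values of the companion lists in the CD11c-low table. Members, lists and roles were chosen with earlier results of these data known. The plan assumed a significance value of 0.05; the deposited s-value served. Single-gene false sign rates were recovered from successive s-values, which are running means. Changes in the 2 subsets were compared by a two-sided normal test on the difference, treating the subsets as independent, with Benjamini-Hochberg adjustment over 99 genes. The calculations were tested on simulated data. There the subsets were independent, the values were not shrunken and the planted differences were larger than those of Kdm5a and Kmt2e. That simulation does not show how the test performs at differences of their size. Python 3.11.15, pandas 2.3.3, NumPy 2.4.6, SciPy 1.17.1 and matplotlib 3.10.9 were used. GENCODE M21 and RefSeq, both GRCm38, gave names, transcripts and promoters; no coordinates were joined to the GRCm39 tables.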

Additional observations from a re-analysis of the deposited data

How the results depend on the processing

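The 5 member counts were repeated with an s-value under 0.01, a false sign rate of the gene itself under 0.05, a mean normalised count of at least 100, a log2 change of at least 0.3, a stricter reading of the name pattern, and without Ncoa, Ncor and Hmg genes. Of 31 repeated values, the test between subsets included, 20 stayed within 1.5 times and 11 did not. In CD11c-low cells the 9 members that fell became 2 at an s-value under 0.01 and 3 at a false sign rate under 0.05, while the 7 that rose stayed between 5 and 7. In CD11c-high cells the 3 that rose and the 1 that fell became 0 and 0 under the s-value, false sign rate and size limits, and the 2 members in both tables became 0 under the same 3. These limits leave fewer genes by their construction. Neither difference between subsets passed, with or without immunoglobulin segments in the adjustment. No paired analysis was possible because the tables hold no column of a single library, and for the same reason no replicate could be left out.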
